A study of Mus musculus with 9 samples.

Results

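The heat shock and unfolded protein response genes examined here were Hspb1, Hspa1a, Hspa1b, Dnajb1, Hsph1, Hsp90aa1, Hspa5, Ddit3, Atf3 and Trib3, followed in mouse brain after injection of a baculovirus vector. Members were all probe sets whose single gene symbol in the array annotation was one of these 10, which gave 23 of the 45101 probe sets on the array. Of the 23, 20 passed a filter on dim probe sets (above the 40th percentile of the array's signals on at least 3 arrays), and all 10 genes kept at least 1. Adult male BALB/c mice were injected into the striatum on both sides, 3 per group, and tissue around the sites was collected 2 days later, with 1 array per mouse. The HS group received BV-HSVtk, a baculovirus vector, purified by high-speed centrifugation alone. The MC+HS group received the same vector purified by membrane chromatography followed by high-speed centrifugation. Both vector groups received 100000000 particles in 10 µL per side. The mock group received culture medium of Sf9 insect cells that held no baculovirus and had gone through the MC+HS purification. No mock preparation made by centrifugation alone was among the 9 samples, so HS and mock differed in both vector and purification, and these cannot be told apart.

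Heat shock proteins are chaperones that hold or refold other proteins, and many are induced when heat shock factors bind repeated short elements near the gene start after proteins misfold in the cytosol. The unfolded protein response is the counterpart for the endoplasmic reticulum (ER): its sensors raise ER chaperones and pause translation, and prolonged signalling through the kinase arm leads through Atf4 to Ddit3, Atf3 and Trib3. In brain, Hspb1 is known as a small heat shock protein that appears in reactive astrocytes and blood vessels after injury, and neurons hold constitutive chaperones such as Hspa8 at high levels.

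Promoter sequences are shown for members called below, and for 2 called list genes, Pdia6 and Nupr1, chosen because their windows hold a known response element. They are the 150 bases before the annotated start, read 5′ to 3′ on the gene's strand, from RefSeq on GRCm38.p6. Capitals mark the 2-unit heat shock core in Hspb1 and Hspa1b (GAANNTTC or TTCNNGAA), the ER stress element in Hspa5 and in Pdia6, an ER folding enzyme (CCAAT and CCACG with 9 bases between them), and the element bound by Atf4-type factors in Nupr1, a stress-induced chromatin protein (TGATGNAA, read on either strand).
Hspb1, chr5:135887769-135887918, plus strand: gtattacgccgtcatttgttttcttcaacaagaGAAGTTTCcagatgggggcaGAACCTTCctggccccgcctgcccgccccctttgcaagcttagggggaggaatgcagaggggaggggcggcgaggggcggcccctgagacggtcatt
Hspa1b, chr17:34959239-34959388, minus strand: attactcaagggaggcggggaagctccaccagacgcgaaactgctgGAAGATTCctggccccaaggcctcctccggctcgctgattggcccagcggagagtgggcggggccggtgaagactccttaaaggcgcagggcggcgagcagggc
Hspa5, chr2:34771940-34772089, plus strand: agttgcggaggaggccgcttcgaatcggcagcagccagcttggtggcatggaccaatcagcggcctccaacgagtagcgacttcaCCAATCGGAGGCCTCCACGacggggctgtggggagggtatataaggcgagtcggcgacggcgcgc
Pdia6, chr12:17266439-17266588, plus strand: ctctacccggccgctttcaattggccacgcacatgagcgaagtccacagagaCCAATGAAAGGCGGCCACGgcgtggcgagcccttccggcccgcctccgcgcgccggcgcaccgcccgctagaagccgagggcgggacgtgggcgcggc
Nupr1, chr7:126625471-126625620, minus strand: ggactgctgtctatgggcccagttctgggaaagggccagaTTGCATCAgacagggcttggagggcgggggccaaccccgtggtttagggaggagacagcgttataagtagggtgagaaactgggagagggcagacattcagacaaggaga

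Hspb1 carried a pair of cores, at -117 to -110 and -97 to -90 from the start, and Hspa1b carried 1 core at -104 to -97. The Hspa1a window differed from that of Hspa1b at 4 of 300 bases. Promoter windows of 300 bases, 250 before and 50 after each start, were found for 9 of the 10 genes. The 2-unit core lay in those of Hspb1, Hspa1a, Hspa1b and Hsph1, against 15.1% of all 32851 promoter windows. Hsph1 also held a run of 3 alternating units (NGAAN and NTTCN with no gap), ATTCTGGAAAGTTCT at chr5:149636287-149636301 on the minus strand, just after its start, a form found in 0.597% of all windows and overlapping a pair of its cores, while another core lay before the start. The ER stress element lay in that of Hspa5 at -65 to -47, against 0.119% of all windows, and TGATGNAA in those of Atf3 and Trib3, against 3.97%. Among the ER folding genes named below, Pdia6, Calr and Canx also held the ER stress element, and these letters were not in the windows of Pdia3 and Pdia4. The palindromic ATF site TGACGTCA was in none of the 9, against 1.79% of all windows. A match is a run of letters and was not tested as a binding site.

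Levels are given as log2(signal + 16) after each array's median was set to a common value, and a log2 difference of 1 is a 2-fold difference on that scale. One array, HS replicate 1, did not resemble the remaining 8. It correlated with them at a median r of 0.757, where each of those 8 reached 0.956 to 0.979, its log2 signals had a standard deviation of 1.54, against 2.17 to 2.39, and its Gapdh 3′ to 5′ signal ratio was 2.00, against 0.865 to 0.932. Each result is therefore given from all 9 arrays and again from the 8 arrays without it, where HS has 2 arrays and the spread is estimated over the 3 groups together. Markers of striatal medium spiny neurons were on the array for 9 of 11 listed genes, and all 9 passed the filter. Summed signals of these 9 lay between 20009 and 26838 on those 8 arrays, and at 6169 on HS replicate 1.

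With HS replicate 1 left out, Hspb1, Hspa1b and Hspa5 were higher in HS than in mock, and Hspb1 was also higher in MC+HS than in mock. Dnajb1, Hsph1 and Hsp90aa1, cytosolic chaperones of the same response, differed from mock by at most 0.27 on the log2 scale in either vector group by their brightest probe sets. The counts were 3 of 10 genes higher and 0 lower in HS against mock, where 3.78% of all 13331 genes measured were called higher, and 0.39% lower (limma, Benjamini-Hochberg adjusted p under 0.05 over all probe sets). In MC+HS against mock they were 1 of 10 higher and 0 lower, where 3.23% were called higher and 0.435% lower. By probe sets, 7 of 20 were higher in HS and 2 of 20 in MC+HS, against 2.94% and 2.49% of all those tested. The median gene of the 10 was 0.51 above mock in HS and 0.32 above in MC+HS, against 0.05 and 0.01 for all genes. With all 9 arrays the median of the 10 in HS was 0.11, against -0.23 for all genes. From all 9 arrays, none of the 10 was called in either comparison, where 0.93% and 0.713% of all genes were called in either direction. At an unadjusted p under 0.05 the counts with 9 arrays were 2 genes (Atf3 and Trib3) and 1 gene (Trib3), and the smallest limma adjusted p among the genes were 0.289 and 0.422. By probe sets 3 and 2 of 20 passed that unadjusted cut, where 1886 and 1383 of all 28257 did. When the 9 arrays were weighted by quality, Hspb1 (1.16), Hspa1a (0.47), Hspa1b (0.93), Hsph1 (0.20), Hspa5 (0.57), Ddit3 (0.24) and Trib3 (0.56) were called higher in HS, and Hspb1 (0.98), Hspa1b (0.65) and Trib3 (0.81) in MC+HS, but the weights had not converged. In that setting 7776 and 2146 of all 28257 probe sets were called in either direction, against 219 and 164 without weights.

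Hspb1, the small heat shock protein Hsp27 that binds unfolding proteins and actin filaments, had the smallest adjusted p of the 10 in both comparisons with mock when HS replicate 1 was left out. Its brightest probe set, 1422943_a_at, read 9.89, 10.29 and 9.84 on the mock arrays. The HS arrays read 8.58, 11.23 and 11.42, the first of these being HS replicate 1, and the MC+HS arrays read 11.35, 10.99 and 11.03. Apart from HS replicate 1, which was the lowest of all 9, each vector array lay above each mock array.
Without that array Hspb1 was 2.49-fold higher in HS (log2 difference 1.32 ± 0.16, SE, n = 2 against 3; limma adjusted p = 0.000674). It was 2.17-fold higher in MC+HS (1.12 ± 0.14, n = 3 against 3; limma adjusted p = 0.00106). Across the 20 other settings tried on these 8 arrays or fewer, both differences stayed called, with adjusted p from 1.93e-10 to 0.0202 in HS and from 2.68e-05 to 0.00645 in MC+HS. With all 9 arrays the differences were 0.40 ± 0.65 and 1.12 ± 0.65 (limma unadjusted p = 0.551 and 0.120), and neither passed after adjustment. HS replicate 1 is in neither group of MC+HS against mock and changed only the standard error there. With only the mock and MC+HS arrays in the fit, Hspb1 read 1.12 in MC+HS and passed (limma adjusted p = 0.00263). The other Hspb1 probe set, 1425964_x_at, read 9.37, 9.91 and 8.93 in mock, 9.96, 10.62 and 10.71 in HS and 10.67, 10.24 and 10.20 in MC+HS. Here HS replicate 1 also lay above the mock arrays, though barely. This probe set was higher by 1.26 ± 0.24 in HS and 0.97 ± 0.21 in MC+HS without HS replicate 1 (limma adjusted p = 0.0129 and 0.0324), and was not called with it (1.03 ± 0.32 and 0.97 ± 0.32; limma adjusted p = 0.419 and 0.565).

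Hspa1a and Hspa1b encode the inducible Hsp70 chaperones, which refold proteins with Hsp40 partners, and are near-identical neighbours on chromosome 17. Probes of either can bind transcripts of both, so the split between them is uncertain. The brightest Hspa1b probe set, 1452318_a_at, read 9.33, 9.13 and 9.46 in mock, 8.67, 10.19 and 10.20 in HS and 9.59, 10.04 and 9.85 in MC+HS. HS replicates 2 and 3 lay above each MC+HS array, and these above each mock array, while HS replicate 1 was the lowest of the 9.
On the 8 other arrays, Hspa1b was 1.85-fold higher in HS (0.89 ± 0.14; limma adjusted p = 0.00535), and the probe sets 1427127_x_at and 1427126_at gave 0.83 ± 0.11 and 0.95 ± 0.12 (limma adjusted p = 0.00117 and 0.000829). With a further HS array left out, which leaves HS with 1 array assumed to vary like the other groups, the difference stayed at 0.89 without HS replicate 2 and 0.88 without HS replicate 3, but the call was lost (limma adjusted p = 0.060 and 0.0796). It held in the 18 other settings, with adjusted p down to 8.75e-06. In MC+HS the 3 probe sets read 0.52 ± 0.13, 0.33 ± 0.10 and 0.32 ± 0.10 above mock and did not pass (limma adjusted p = 0.0594, 0.111 and 0.165). The first passed in 2 of the 20 other settings. These were without MC+HS replicate 1 (0.64, limma adjusted p = 0.0191) and with quality weights (0.68, limma adjusted p = 0.00516). On all 9 arrays such weights had not converged. The single Hspa1a probe set read 8.63, 8.48 and 8.41 in mock, 7.37, 8.993 and 8.9996 in HS and 8.75, 9.09 and 8.66 in MC+HS. Its differences were 0.49 ± 0.14 in HS and 0.33 ± 0.13 in MC+HS without HS replicate 1, and neither passed (limma adjusted p = 0.113 and 0.257). With all 9 arrays the 4 Hsp70 probe sets differed from mock by -0.06 to 0.52 in these comparisons, and none passed.

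The partners of Hsp70 and the Hsp90 chaperone were already bright in mock, and none of their 7 probe sets passed in any comparison on all 9 arrays or without HS replicate 1. Dnajb1, the Hsp40 that hands clients to Hsp70, read 11.28, 11.16 and 11.26 in mock, 9.91, 11.34 and 11.36 in HS and 11.49, 11.27 and 11.17 in MC+HS by its brighter probe set. Hsph1, the Hsp110 that exchanges nucleotide on Hsp70, read 12.20, 12.13 and 12.09 in mock, 10.05, 12.35 and 12.47 in HS and 12.34, 12.29 and 12.16 in MC+HS. Hsp90aa1, the inducible cytosolic Hsp90 that matures kinases and receptors, read 13.03, 13.08 and 13.30 in mock, 7.01, 13.17 and 13.23 in HS and 13.29, 13.09 and 13.18 in MC+HS. Apart from HS replicate 1, this Hsp90aa1 probe set, 1438902_a_at, stayed within the range of the mock arrays in all groups.
On the 8 other arrays the HS differences were 0.12 ± 0.11 for Dnajb1, 0.27 ± 0.09 for Hsph1 and 0.06 ± 0.10 for Hsp90aa1 (limma adjusted p = 0.686, 0.182 and 0.841). Their 95% confidence intervals ran from -0.12 to 0.36, from 0.07 to 0.47 and from -0.15 to 0.27, so a doubling of any of them lay outside. In MC+HS the differences were 0.08 ± 0.10, 0.12 ± 0.08 and 0.05 ± 0.09, with intervals of -0.14 to 0.29, -0.06 to 0.30 and -0.14 to 0.24 (limma adjusted p = 0.798, 0.567 and 0.874). These intervals are not adjusted for the number of genes.
The dimmer probe sets of these genes did not all follow the brightest. Hsp90aa1 1426645_at read 12.15, 12.11 and 12.07 in mock, 9.14, 12.11 and 11.87 in HS and 11.98, 11.84 and 11.83 in MC+HS, with each MC+HS array below the mock arrays. Its difference in MC+HS was -0.23 ± 0.09, with an interval of -0.42 to -0.03 (limma adjusted p = 0.258), and in HS it was -0.12 ± 0.10 (limma adjusted p = 0.644). Hsp90aa1 1437497_a_at read 0.02 ± 0.10 in HS and 0.0083 ± 0.09 in MC+HS (limma adjusted p = 0.964 and 0.981). Hsph1 1423566_a_at read 11.12, 11.06 and 11.06 in mock and 10.97, 10.98 and 10.98 in MC+HS, a difference of -0.11 ± 0.08 that was opposite in sign to the brighter one (limma adjusted p = 0.627), and 0.09 ± 0.09 in HS (limma adjusted p = 0.725). Dnajb1 1416756_at read 0.14 ± 0.11 in HS and -0.09 ± 0.09 in MC+HS (limma adjusted p = 0.611 and 0.742).

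**Figure D1:**
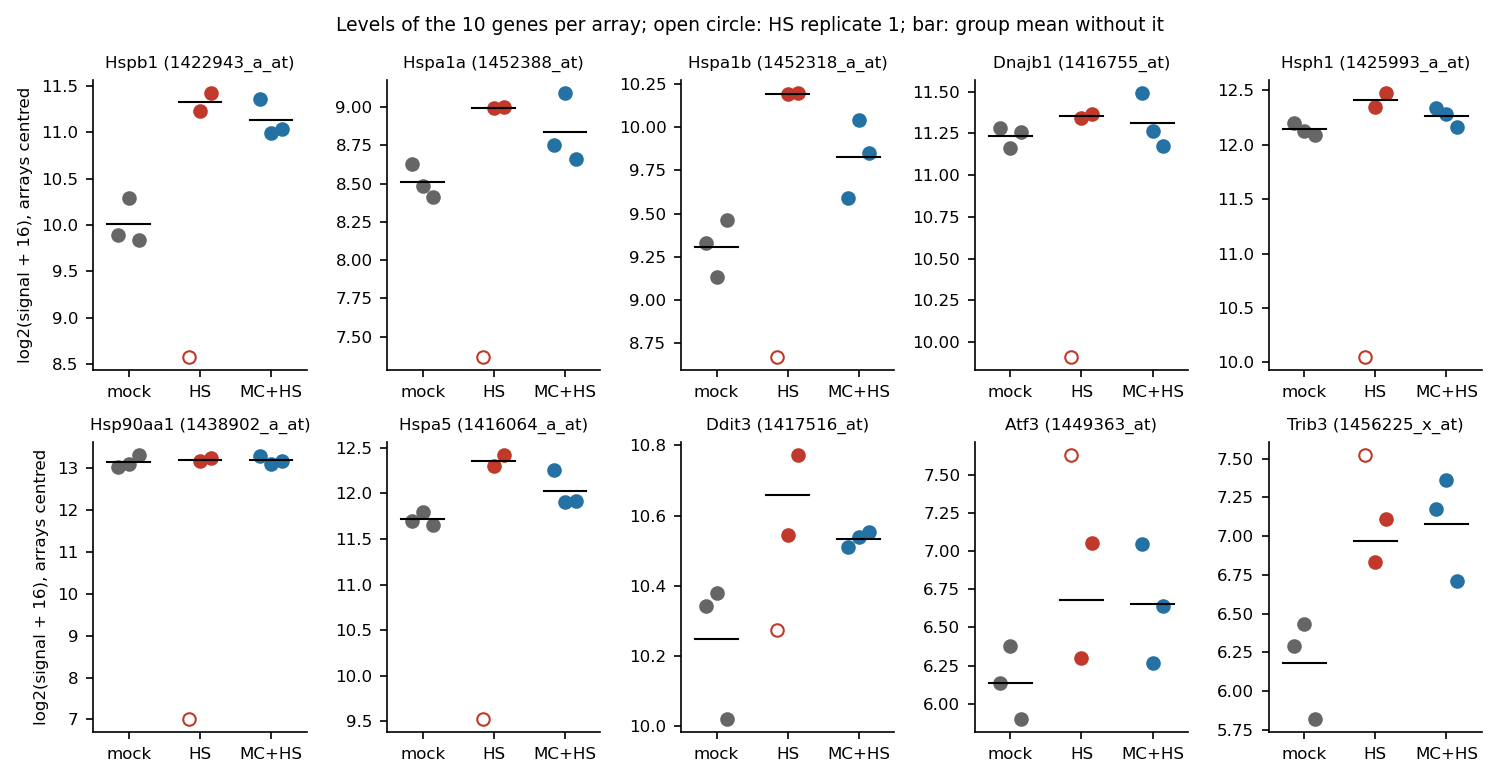
Log2 level of the brightest probe set of each of the 10 genes on each array (y axis, log2(signal + 16), with a scale of its own in each panel) by group (x axis); filled circles are single arrays, the open circle is HS replicate 1, and bars are group means without it. Hspb1 reads at most 10.29 in mock and at least 10.99 on the vector arrays other than HS replicate 1, while Hsp90aa1 reads 13.03 to 13.30 on all arrays but that one.

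Hspa5, the ER chaperone BiP that binds nascent proteins and keeps the ER stress sensors inactive, was higher in HS without HS replicate 1. Its brightest probe set, 1416064_a_at, read 11.70, 11.79 and 11.66 in mock, 9.52, 12.31 and 12.42 in HS and 12.26, 11.90 and 11.91 in MC+HS. Each vector array except HS replicate 1 lay above the 3 mock arrays, and HS replicates 2 and 3 above those of MC+HS.
The difference from mock was 1.56-fold in HS (0.64 ± 0.12; limma adjusted p = 0.0100). With HS down to 1 array the difference was 0.70 without HS replicate 2 and 0.59 without HS replicate 3, and the call was lost (limma adjusted p = 0.0596 and 0.159). It held in the 18 other settings, with adjusted p down to 0.000159. In MC+HS it was 0.31 ± 0.10 and did not pass (limma adjusted p = 0.178), except after quantile normalization (0.31, limma adjusted p = 0.0157). The probe set 1427464_s_at gave 0.40 ± 0.09 in HS and 0.24 ± 0.08 in MC+HS (limma adjusted p = 0.0415 and 0.181), while 1447824_x_at read -0.23 ± 0.16 and 0.03 ± 0.14 (limma adjusted p = 0.577 and 0.952). The 3 Hspa5 probe sets thus disagreed in sign in HS. With all 9 arrays the brightest read -0.30 ± 0.67 in HS (limma adjusted p = 0.828).

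The factors at the end of the kinase arm did not pass in the fit of all 9 arrays or in that without HS replicate 1. Without scaling between arrays, 4 members passed in HS on the 8 arrays that otherwise did not, Ddit3 (0.85), Trib3 (1.23), Hspa1a (0.93) and Hsph1 (0.71), with limma adjusted p of 0.0126, 0.00633, 0.00509 and 0.0265. In that setting the median of all probe sets itself lay 0.47 above mock, against 0.03 with scaling. Ddit3, the pro-apoptotic transcription factor CHOP, read 10.34, 10.38 and 10.02 in mock, 10.27, 10.54 and 10.77 in HS and 10.51, 10.54 and 10.55 in MC+HS. All vector arrays but HS replicate 1 lay above mock, by small steps. The differences without HS replicate 1 were 0.41 ± 0.13 in HS and 0.29 ± 0.11 in MC+HS (limma adjusted p = 0.140 and 0.269). With all 9 arrays Ddit3 read 0.28 ± 0.23 in HS (limma adjusted p = 0.635).
Atf3, a stress-induced transcription factor that also marks injured neurons, was dim, at 6.13, 6.38 and 5.90 in mock, 7.63, 6.30 and 7.05 in HS and 7.05, 6.27 and 6.64 in MC+HS. These readings lay between the 23.9th and 54.4th percentiles of their arrays, and the groups overlapped. The differences without HS replicate 1 were 0.54 ± 0.32 and 0.52 ± 0.28 (limma adjusted p = 0.497 and 0.466), with 95% confidence intervals of -0.16 to 1.24 and -0.11 to 1.14, so a doubling lay inside both. With all 9 arrays Atf3 read 0.86 ± 0.35 in HS, with an interval of 0.06 to 1.66 (limma adjusted p = 0.635). HS replicate 1 was its highest array.
Trib3, a pseudokinase that Ddit3 and Atf4 induce and that restrains Akt signalling, had probe sets that disagreed. Probe set 1456225_x_at read 6.29, 6.43 and 5.82 in mock, 7.52, 6.83 and 7.11 in HS and 7.17, 7.36 and 6.71 in MC+HS, so that all 6 vector arrays, HS replicate 1 included, lay above the 3 mock arrays. Its differences were 0.97 ± 0.27 in HS and 0.90 ± 0.27 in MC+HS with all 9 arrays (limma adjusted p = 0.289 and 0.422) and 0.79 ± 0.27 and 0.90 ± 0.24 without HS replicate 1 (limma adjusted p = 0.187 and 0.0784). The other, 1426065_a_at, read 6.59, 6.63 and 7.03 in mock, and differed by -0.07 ± 0.23 in HS and -0.0013 ± 0.21 in MC+HS without HS replicate 1 (limma adjusted p = 0.932 and 0.998). The 3 probe sets that failed the filter, 1433251_at and 1441827_x_at of Hsp90aa1 and 1443897_at of Ddit3, lay between the 6.3rd and 44.1st percentiles of their arrays and were not tested.

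**Figure D2:**
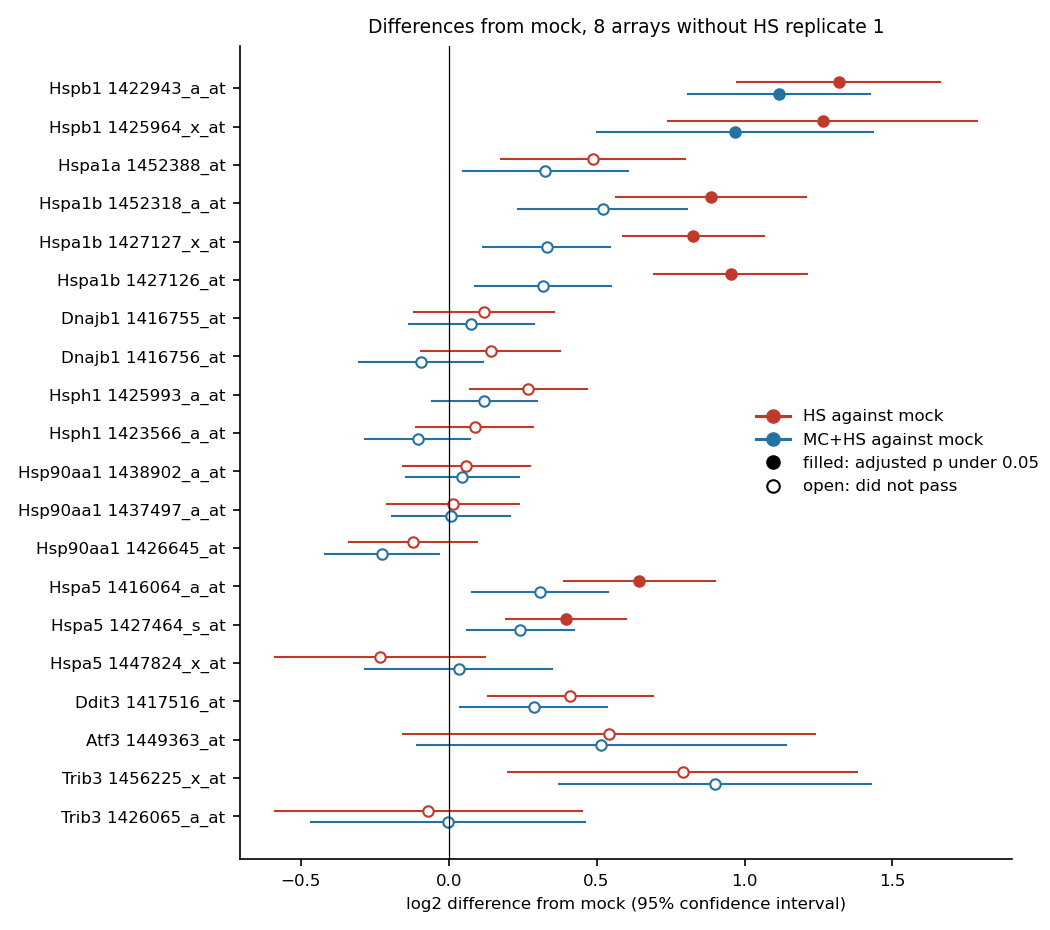
Log2 difference from mock (x axis) for the 20 probe sets of the 10 genes that passed the filter (y axis), without HS replicate 1; points are limma estimates for HS (red) and MC+HS (blue), lines are 95% confidence intervals, and filled points had an adjusted p under 0.05. Filled points are those of both Hspb1 probe sets in both groups, and of the 3 Hspa1b and of 2 Hspa5 probe sets in HS.

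In HS against mock without array weights, whether any member was called turned on HS replicate 1. In MC+HS against mock, which holds no HS array, that array entered only through the shared estimate of spread. On HS replicate 1, probe sets of 1 gene deviated by unlike amounts. Of the 20 probe sets, 18 were lower on it than on both other HS arrays, against 21450 of all 28257 probe sets that passed the filter. On it 16 were lower than on all other arrays, or 80% against 64.7% of those 28257. Against the mean of HS replicates 2 and 3, the 3 Hsp90aa1 probe sets read -6.19, -2.85 and -0.28 on the log2 scale. The Hspb1 probe sets read -2.75 and -0.71, and those of Hspa5 -2.84, -2.43 and -0.24. Atf3 and 1456225_x_at of Trib3 were higher on it, by 0.95 and 0.55. With this array the median difference of all genes between HS and mock was -0.23, and without it 0.05.

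**Figure D3:**
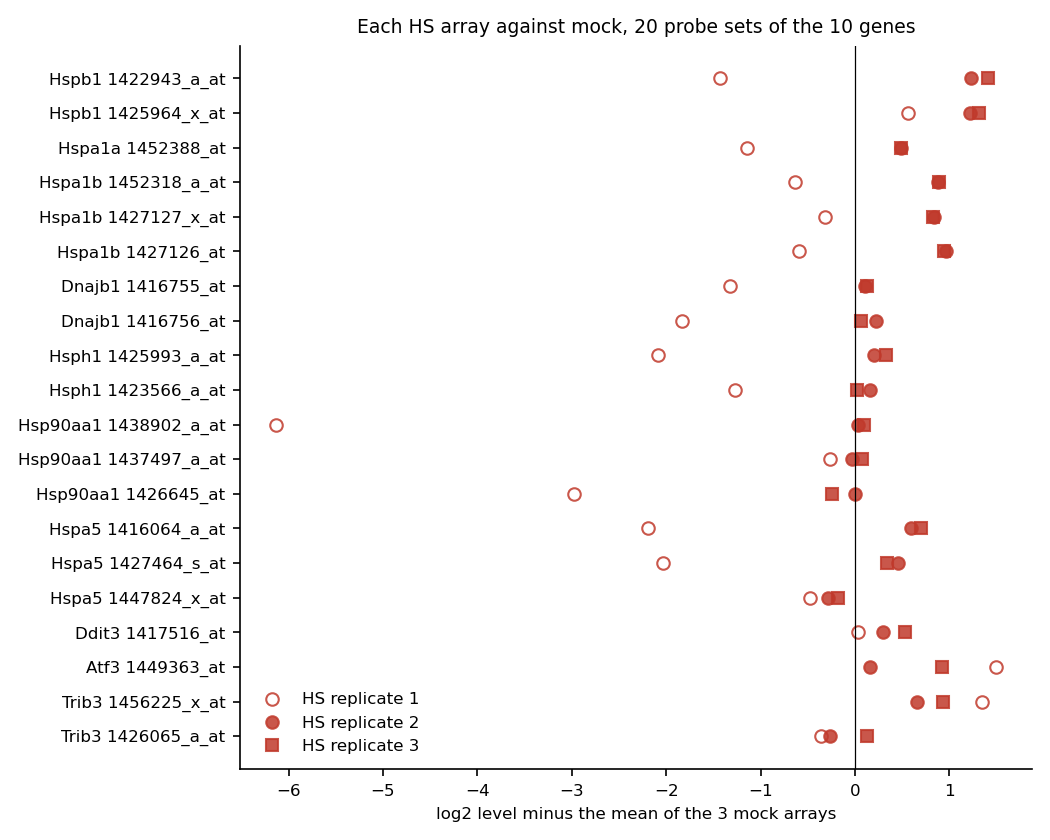
Log2 level on each HS array minus the mean of the 3 mock arrays (x axis) for the 20 probe sets that passed the filter (y axis); open circles are HS replicate 1, filled circles HS replicate 2 and squares HS replicate 3. HS replicates 2 and 3 lie close together for most probe sets, while HS replicate 1 lies at -6.13 for 1 Hsp90aa1 probe set and at 1.49 for Atf3.

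The direct comparison of MC+HS with HS asked whether the purification changed the response. None of the 10 genes was called with all 9 arrays or without HS replicate 1, where 0% and 0.0075% of all genes were called in either direction. At an unadjusted p under 0.05 the counts by brightest probe sets were 0 and 2 genes, Hspa1b and Hspa5, both lower in MC+HS. Over all their probe sets 0 and 5 of 20 passed that cut, where 847 and 2150 of all 28257 did. Without HS replicate 1, Hspa1b read lower in MC+HS by each probe set, with differences of -0.37 ± 0.14, -0.50 ± 0.11 and -0.63 ± 0.12 (limma adjusted p = 0.608, 0.273 and 0.220). Hspa5 read -0.34 ± 0.12 by its brightest probe set, with a 95% confidence interval of -0.59 to -0.08 (limma adjusted p = 0.560). Its probe set 1427464_s_at read -0.15 ± 0.09, with an interval of -0.36 to 0.05 (limma adjusted p = 0.738). The opposite sign came from 1447824_x_at, at 0.26 ± 0.16 (limma adjusted p = 0.738), so the Hspa5 probe sets disagreed here too. Hspb1 read -0.20 ± 0.16, with an interval of -0.54 to 0.14 (limma adjusted p = 0.797). By brightest probe sets, the unadjusted intervals of Hspa1b (-0.69 to -0.05) and Hspa5 did not include 0. Those of Dnajb1 (-0.28 to 0.20) and Hsp90aa1 (-0.23 to 0.20) were narrow, and that of Atf3 (-0.72 to 0.67) was wide. On all 9 arrays the signs of several turned, with 0.14 ± 0.39 for Hspa1b, 0.61 ± 0.67 for Hspa5 and 0.71 ± 0.65 for Hspb1 (limma adjusted p = 0.881, 0.734 and 0.728). With quality weights on 9 arrays, Hspa1b and Hspa5 were called lower in MC+HS (-0.28 and -0.35, limma adjusted p = 0.0345 and 0.0102). Those weights had not converged, and with them 6536 of all 28257 probe sets were called, against 0 without weights. HS against mock and MC+HS against mock share the 3 mock arrays, so a likeness of their values is not separate evidence.

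Other genes of these pathways were taken from 4 lists with 110 genes, of which 103 were measured. Without HS replicate 1, 12 of the 103 were higher and 1 lower in HS than in mock, and 7 were higher and 0 lower in MC+HS, or 11.7% and 6.8% higher, against the 3.78% and 3.23% given above for all genes. With all 9 arrays 1 was higher in HS and 0 in MC+HS. The lists were drawn up with earlier results of these data known, so these shares describe them and were not tested. Members and list genes called in HS, 16 together, fell to 7 without HS replicate 2 as well, to 4 without HS replicate 3 and to 10 without mock replicate 3.

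Of 38 cytosolic and mitochondrial chaperones and heat shock factors, 3 were higher in HS and 2 in MC+HS without HS replicate 1, and the median member was 0.16 and 0.06 above mock. Hspb8, a small heat shock protein that works with Bag3 to clear misfolded proteins, read 8.23, 9.04 and 8.26 in mock, 7.32, 9.84 and 9.96 in HS and 9.36, 9.61 and 9.52 in MC+HS. HS replicate 1 was again the lowest and the other vector arrays lay above mock, with differences of 1.39 ± 0.21 and 0.99 ± 0.19 (limma adjusted p = 0.00353 and 0.0163). Hspb6, the small heat shock protein Hsp20, was higher by 0.88 ± 0.19 and 0.83 ± 0.17 (limma adjusted p = 0.0295 and 0.0228). Serpinh1, the collagen chaperone Hsp47, was higher by 1.03 ± 0.22 in HS (limma adjusted p = 0.0307) and read 0.54 ± 0.20 in MC+HS (limma adjusted p = 0.231). The bright constitutive Hsp70 gene Hspa8 and the autophagy receptor gene Sqstm1 read 0.03 ± 0.08 and 0.19 ± 0.10 in HS (limma adjusted p = 0.915 and 0.451).

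None of 10 ER stress sensors and their transcription factors passed, and Xbp1, the factor that the sensor Ern1 activates by splicing, read 0.15 ± 0.12 in HS and 0.08 ± 0.10 in MC+HS (limma adjusted p = 0.628 and 0.803). Creb3, an ER-bound factor, read 0.08 ± 0.12 and 0.08 ± 0.10 (limma adjusted p = 0.829 and 0.795). A 3′ array does not separate spliced from unspliced Xbp1. Of 29 ER chaperones, folding enzymes and degradation factors, 3 were higher in HS and 0 in MC+HS. They were the protein disulfide isomerase genes Pdia3 (0.57 ± 0.11), Pdia4 (0.49 ± 0.10) and Pdia6 (0.45 ± 0.10), with limma adjusted p of 0.0183, 0.0214 and 0.0395. In MC+HS they read 0.30 ± 0.10, 0.36 ± 0.09 and 0.27 ± 0.09 (limma adjusted p = 0.182, 0.0629 and 0.185). The lectin chaperone genes Calr and Canx read 0.30 ± 0.11 and 0.17 ± 0.09 in HS (limma adjusted p = 0.241 and 0.428). Without HS replicate 1, 28 of 29 members of this list had a positive difference in HS, with a median of 0.27. In MC+HS 24 of 29 did, with a median of 0.10, against 61.2% and 51.5% of all genes. Positive differences in HS numbered 32 of 38 for the cytosolic and mitochondrial list, 10 of 10 for the sensors and 20 of 26 for the integrated stress response. With all 9 arrays these counts in HS were 9 of 38, 3 of 10 and 11 of 26. The ER folding list then had 10 of 29 positive in HS, with a median of -0.21, where 24.4% of all genes were positive.

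Of 26 integrated stress response genes, 6 were higher and 1 lower in HS, and 5 were higher in MC+HS. Eif2ak2, the interferon-induced kinase PKR that senses double-stranded RNA and phosphorylates the initiation factor at the centre of this response, read 7.68, 8.81 and 7.80 in mock, 7.87, 10.05 and 10.40 in HS and 9.99, 10.03 and 9.92 in MC+HS. It was higher by 2.12 ± 0.27 in HS and 1.88 ± 0.24 in MC+HS (limma adjusted p = 0.00106 and 0.00129). Nupr1, whose promoter is shown above, read 8.47, 8.89 and 8.33 in mock, 9.79, 9.64 and 10.25 in HS and 9.51, 9.64 and 9.80 in MC+HS. All 6 vector arrays, HS replicate 1 included, lay above mock.
Nupr1 was the 1 list gene called with all 9 arrays, at 1.33 ± 0.23 in HS (limma adjusted p = 0.0410), a call lost when any array other than HS replicate 1 or mock replicate 2 was left out. On the 8 other arrays it was higher by 1.38 ± 0.20 in HS and 1.09 ± 0.18 in MC+HS (limma adjusted p = 0.00233 and 0.00591). The transcription factor gene Cebpb was higher by 1.02 ± 0.14 and 0.88 ± 0.13, Atf5 by 0.82 ± 0.18 and 0.91 ± 0.16, and Eif4ebp1, which encodes a repressor of cap-dependent translation, by 0.96 ± 0.17 and 0.92 ± 0.15 (limma adjusted p between 0.00176 and 0.0279). The cystine transporter gene Slc7a11, outside the rule for named genes and given after its values were seen, was higher in HS by 0.98 ± 0.20 (limma adjusted p = 0.0205). Vegfa, the vascular growth factor gene, was lower in HS, by -0.86 ± 0.17 (limma adjusted p = 0.0154), and read -0.57 ± 0.15 in MC+HS (limma adjusted p = 0.0736). The amino acid genes Psat1 and Slc3a2 read 0.18 ± 0.13 and 0.14 ± 0.10 in HS (limma adjusted p = 0.602 and 0.603).

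**Figure D4:**
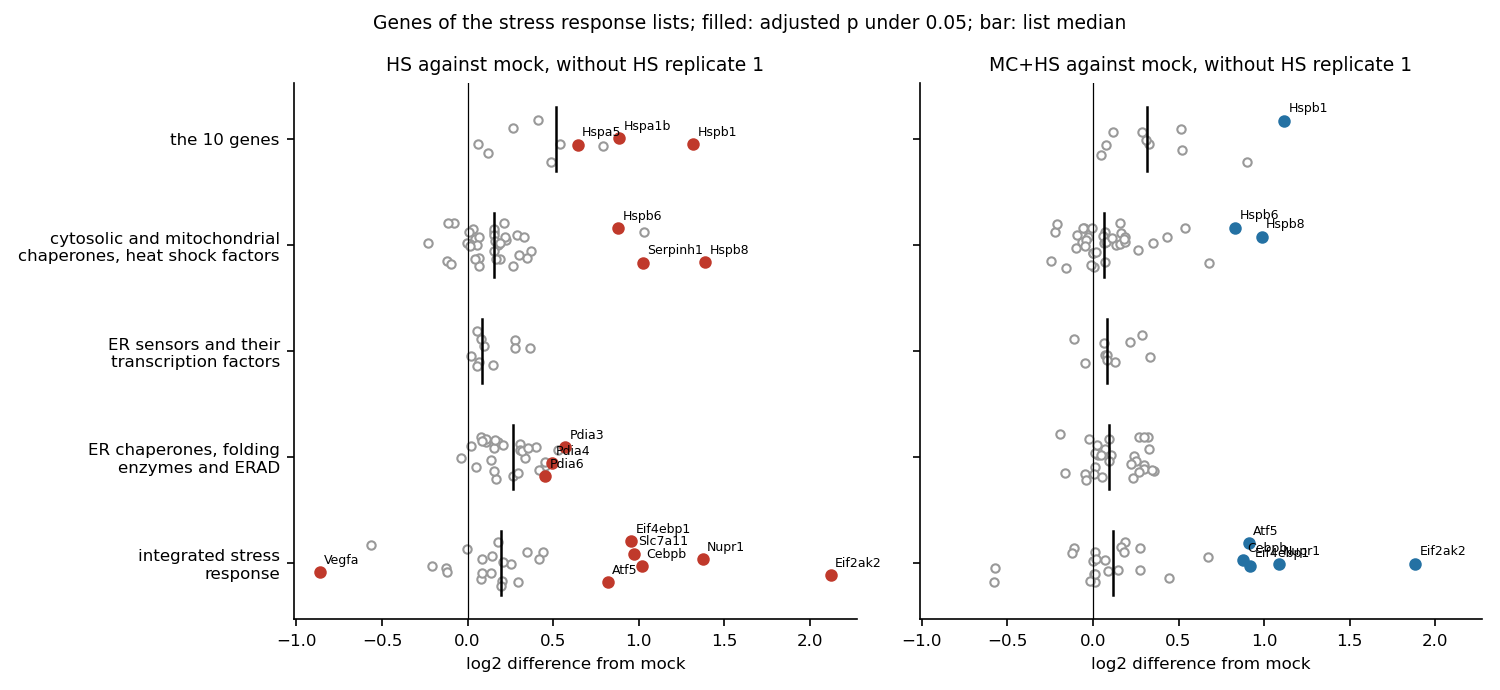
Log2 difference from mock (x axis) of the 10 genes and of the measured genes in the 4 pathway lists (y axis), without HS replicate 1, for HS (left) and MC+HS (right); each point is 1 gene, coloured and named where its limma adjusted p was under 0.05, and bars are list medians. The called genes in HS are 3 of the 10, 3 of 38 chaperones, 0 of 10 sensors and factors, 3 of 29 ER folding genes and 7 of 26 integrated stress response genes.

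The likeness of other genes to the called members was measured as Pearson's r of log2 levels over the 8 arrays without HS replicate 1, which share the 3 group means. For Hspb1 the closest were Ly6e (r = 0.996), Tgfbr2 (0.995) and Apod (0.994). For Hspa1b they were S100a8 (0.978), Sphkap (0.977) and Cd40 (0.974), and for Hspa5 they were Grb2 (0.988), Psmc6 (0.986) and Psme3 (0.986). Spearman's rho for these lay 0.929 or above. Among the 10, Hspb1 and Hspa5 correlated at 0.90 and Hsph1 and Hspa5 at 0.91, while Hsp90aa1 correlated with Hspb1 at 0.30.

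Some markers of other cell types were also called. In bulk tissue, more cells of a type and more RNA per cell cannot be told apart. Of 6 measured markers of infiltrating monocytes and macrophages, 4 were higher in each vector group without HS replicate 1. The summed signal of all 7 on the array ranged from 1802 to 3391 in mock, 7590 to 8108 in HS and 5949 to 6537 in MC+HS. F10 failed the filter. For T and NK cells 3 of 6 were higher in each, with sums of 833 to 933, 2899 to 3178 and 1487 to 2548, and Cd3g and Ncr1 failed the filter. For neutrophils it was 2 of 3 in each, with sums of 355 to 460, 843 to 1046 and 532 to 731, and Mmp8, Cxcr2 and Camp failed the filter.
Of 8 astrocyte markers, 3 were higher in HS and 2 in MC+HS, with sums of 37427 to 39918 in mock, 43025 to 46721 in HS and 39219 to 45572 in MC+HS. Of 8 endothelial and pericyte markers, 2 were higher in each, with sums of 7664 to 8387, 10268 to 11687 and 9027 to 10196. Of 7 microglial markers 3 were lower in each, and of 9 medium spiny neuron and 8 neuronal markers none passed. Of 7 oligodendrocyte markers, 1 was higher in HS, and of 6 markers of meninges and fibroblasts 1 was higher in each group and 1 lower in HS. Of 5 choroid plexus and ependymal markers that passed the filter, 1 was lower in each, and the sums of all 6 ranged from 1369 to 13685 in mock, where replicate 3 was the lowest, 7053 to 9156 in HS and 6449 to 10202 in MC+HS. None of 4 red blood cell markers passed the filter.
Mock replicate 2 was above the other mock arrays for several of these markers, with Plac8 at 9.95 against 7.94 and 7.79, Ms4a4c at 8.38 against 6.17 and 6.35 and Gfap at 11.35 against 10.25 and 10.21. By brightest probe sets it was also the highest mock array for Hspb1, Hspa5, Ddit3, Atf3 and Trib3, and for Hspb8 and Eif2ak2. It was the lowest for Hspa1b (9.13 against 9.33 and 9.46) and Dnajb1, and the middle one for Hspa1a, Hsph1 and Hsp90aa1. The part of the marker shifts in the values of Hspb1, Hspa1b and Hspa5 was not tested.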

How the data were processed

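RNA from the tissue of 9 mice was labelled with biotin and put on 1 array each, from 5 µg per sample per the labels' protocols. The deposited values are linear signal intensities, 1 per probe set and array. The submitters' processing notes name GCOS 1.4.0.036 for them; the summary and scaling used are not given in the sources used here.

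Here, log2(signal + 16) was taken, which understates changes of dim genes, and arrays were shifted to a common median. Before the shift, HS replicate 3 lay 0.66 above that median, and the remaining arrays lay between -0.12 and 0.17 from it. Probe sets had to exceed the 40th percentile on 3 or more arrays, and with 64 controls left out this kept 28257. In the platform annotation 34945 probe sets had 1 symbol, 932 had more and 9160 had no symbol, and 34754 were matched by Entrez identifier to RefSeq (GRCm38.p6). The probe set with the highest mean stood for a gene, which gave 13331 genes.

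Groups were compared with limma 3.58.1 (R 4.3.3; lmFit, eBayes with an intensity trend, group as the only term), two-sided, with Benjamini-Hochberg adjustment over all probe sets kept and a threshold of 0.05. The 9 arrays, or 8, entered 1 fit for all 3 comparisons. Errors given as ± are standard errors of the fit. The number of arrays limits the precision: each arm of a 95% confidence interval had a median over probe sets of 0.603 with 9 arrays and, for HS, 0.326 with 8. The scripts were tested on simulated arrays.

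The members and lists were chosen with earlier results of these data known. Named list genes were up to 5 called per list and comparison, by smallest p, and the 2 brightest not called. Replicate numbers were not taken to pair the mice. After group means were removed, the 9 same-numbered pairs of arrays had r from -0.17 to 0.29. Other pairs across groups had r from -0.32 to 0.16. So few arrays cannot decide whether the numbers pair mice. Alternatives were other pseudocounts, filters, scalings and variance models, the replicate number as a block, another probe set per gene, and leaving out each array. The same alternatives without HS replicate 1 were added after seeing the data.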

Additional observations from a re-analysis of the deposited data

How the results depend on the processing

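Recomputing the 30 member differences under the alternatives gave 624 values with all 9 arrays and 594 without HS replicate 1. Of these, 49 and 17 changed sign. Before the alternatives, no difference was called with all 9 arrays, and none of the 17 was of a difference called without HS replicate 1. Some turned differences were called with quality weights on 9 arrays, which had not converged. In HS against mock these were Hspa1a, Hsph1 and Hspa5 (limma adjusted p = 0.00199, 0.0419 and 0.00025). In MC+HS against HS they were Hspa1b and Hspa5 (limma adjusted p = 0.0345 and 0.0102). Atf3 and Trib3 were dim, so their values are limited by signal over background. The share of higher against lower calls moved with the scaling: without HS replicate 1, probe sets called in HS numbered 830 higher and 100 lower with median scaling, 798 and 227 after quantile normalization and 4112 and 32 unscaled, and those in MC+HS 703 and 234, 813 and 415, and 649 and 93.

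For all 9 arrays, the counts of the report, given for HS and for MC+HS against mock and then for the vector groups against each other, were 219, 164, 0 probe sets and 1, 0, 0 members and list genes. With a pseudocount of 64, the difference for HS against mock turned to 0.0087 (Hspa1a), and the difference for MC+HS against HS turned to -0.041 (Ddit3). With no filter, members and list genes called numbered 0 (HS against mock). With the filter at the 60th percentile, probe sets called numbered 136 (HS against mock). After quantile normalization, the difference for HS against mock turned to 0.0091 (Dnajb1), 0.17 (Hsp90aa1), 0.066 (Hspa5), and the difference for MC+HS against HS turned to -0.12 (Hspa1b), -0.14 (Hsp90aa1), -0.38 (Ddit3). Without scaling between arrays, probe sets called numbered 69 (MC+HS against mock), and the difference for HS against mock turned to 0.25 (Hspa1a), and the difference for MC+HS against HS turned to -0.13 (Hspa1b), -0.27 (Ddit3). With arrays weighted by quality, probe sets called numbered 7776 (HS against mock) then 2146 (MC+HS against mock) then 6536 (MC+HS against HS), and members and list genes called numbered 38 (HS against mock) then 15 (MC+HS against mock) then 21 (MC+HS against HS), and the difference for HS against mock turned to 0.47 (Hspa1a), 0.12 (Dnajb1), 0.20 (Hsph1), 0.063 (Hsp90aa1), 0.57 (Hspa5), and the difference for MC+HS against HS turned to -0.18 (Hspb1), -0.11 (Hspa1a), -0.28 (Hspa1b), -0.078 (Dnajb1), -0.099 (Hsph1), -0.017 (Hsp90aa1), -0.35 (Hspa5), -0.0055 (Ddit3), 0.21 (Atf3), 0.25 (Trib3). When only the arrays compared entered the fit, probe sets called numbered 15 (HS against mock) then 727 (MC+HS against mock), and members and list genes called numbered 0 (HS against mock) then 9 (MC+HS against mock). With the replicate number as a block, probe sets called numbered 95 (MC+HS against mock), and members and list genes called numbered 0 (HS against mock). With the most variable probe set per gene, members and list genes called numbered 0 (HS against mock), and the difference for MC+HS against mock turned to -0.093 (Dnajb1). Leaving out each array in turn, counts ran from 66 to 930 for probe sets (HS against mock), from 0 to 16 for members and list genes (HS against mock), from 10 to 937 for probe sets (MC+HS against mock), from 0 to 8 for members and list genes (MC+HS against mock), from 0 to 1 for probe sets (MC+HS against HS). Under those omissions, the differences that changed sign for HS against mock ran, for Hspa1a from -0.33 to 0.49, Dnajb1 from -0.61 to 0.12, Hsph1 from -0.94 to 0.27, Hsp90aa1 from -3.05 to 0.0597, Hspa5 from -0.80 to 0.64, Hspb1 from -0.10 to 1.32. Under those omissions, the differences that changed sign for MC+HS against mock ran, for Hsp90aa1 from -0.0060 to 0.13, Dnajb1 from -0.013 to 0.14. Under those omissions, the differences that changed sign for MC+HS against HS ran, for Hspb1 from -0.20 to 1.22, Hspa1a from -0.16 to 0.65, Hspa1b from -0.37 to 0.40, Dnajb1 from -0.042 to 0.69, Hsph1 from -0.15 to 1.06, Hsp90aa1 from -0.013 to 3.10, Hspa5 from -0.34 to 1.11, Ddit3 from -0.12 to 0.12, Trib3 from -0.23 to 0.11.

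Without HS replicate 1, a set of settings chosen after seeing the data, the counts of the report, given for HS and for MC+HS against mock and then for the vector groups against each other, were 930, 937, 1 probe sets and 16, 8, 0 members and list genes. With a pseudocount of 1, the difference for MC+HS against HS turned to 0.018 (Hsp90aa1). With a pseudocount of 64, probe sets called numbered 3 (MC+HS against HS), and the difference for MC+HS against HS turned to 0.0041 (Atf3). After quantile normalization, the difference for HS against mock turned to -0.053 (Hsp90aa1), and the difference for MC+HS against HS turned to 0.046 (Dnajb1), 0.082 (Hsp90aa1). Without scaling between arrays, probe sets called numbered 4144 (HS against mock) then 535 (MC+HS against HS), and members and list genes called numbered 48 (HS against mock) then 2 (MC+HS against HS), and the difference for MC+HS against HS turned to -0.30 (Trib3). With arrays weighted by quality, probe sets called numbered 1410 (HS against mock) then 1460 (MC+HS against mock) then 15 (MC+HS against HS). When only the arrays compared entered the fit, probe sets called numbered 2 (MC+HS against HS). With the replicate number as a block, probe sets called numbered 2 (MC+HS against HS). With the most variable probe set per gene, the difference for MC+HS against mock turned to -0.093 (Dnajb1). Leaving out each array in turn, counts ran from 574 to 993 for probe sets (MC+HS against mock), from 4 to 18 for members and list genes (HS against mock), from 1 to 6 for probe sets (MC+HS against HS), from 380 to 1073 for probe sets (HS against mock). Under those omissions, the differences that changed sign for MC+HS against mock ran, for Hsp90aa1 from -0.0060 to 0.13, Dnajb1 from -0.013 to 0.14. Under those omissions, the differences that changed sign for MC+HS against HS ran, for Trib3 from -0.0305 to 0.30, Hsp90aa1 from -0.065 to 0.034, Atf3 from -0.40 to 0.35, Dnajb1 from -0.13 to 0.026.

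The replicate number as a block gave 148, 95 and 0 probe sets with all 9 arrays and 975, 1049 and 2 without HS replicate 1. Whether the numbers pair the mice is not known. Without HS replicate 1, Hspb1 stayed called in all 20 settings in both vector groups, and Hspa1b and Hspa5 in 18 of 20 in HS. The cause of the changes was not tested.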
